A study of Mus musculus with 33 samples.

Results

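To ask what ESCs lose and gain in their transcriptome without HP1α, RNA-seq of Hp1α KO ESCs (3 libraries, genotype HP1{alpha}KO) was set against *wild-type* ESCs (3 libraries, here set A), over every gene of the table in which these libraries were deposited together. They are 6 of the 33 libraries of the series, and the table lists 55487 genes. ESCs are pluripotent cells of the early mouse embryo that multiply in culture, and all libraries carry the labels C57BL/6 and mouse embryonic stem cell. The cells were kept in serum and LIF on a layer of fibroblast feeders, most of which were removed before use by letting them attach to gelatin. The libraries used beside these 6 were a further *wild-type* set (set B), Hp1β KO, Hp1γ KO and Hp1α/β DKO ESCs, which lack both genes, with 3 libraries each.

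Mutant cells were grown up from clones picked after transfection and puromycin selection. The labels do not say whether the 3 Hp1α KO libraries came from more than 1 clone, so the deletion and anything else that is fixed in a clone cannot be told apart, and p values measure the spread between these libraries. The 6 libraries held between 20627149 and 23165121 counts. Replicates of a group differed by more than sampling noise, with a chi-square per degree of freedom of 2.77 to 3.19 in the 6 pairs, and the common biological coefficient of variation was 4.29%. Summed over the 10 ESC markers, counts scaled to library size (CPM) ran from 4092 to 4136 in set A and from 3936 to 3999 in Hp1α KO ESCs. Over 14 fibroblast markers the sum ran from 82.7 to 86 CPM and from 71.6 to 80.1 CPM, with 1 marker at 0 in each group.

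HP1 proteins are readers of chromatin. Through the chromodomain they bind histone H3 methylated at lysine 9, and through the chromoshadow domain they pair up and hold partners such as H3K9 methyltransferases and co-repressors, which is the basis of their part in heterochromatin and gene silencing. Mammals have HP1α (gene *Cbx5*), HP1β (*Cbx1*) and HP1γ (*Cbx3*).

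The guides that were used to delete HP1α are shown first, since all that follows depends on them. Capitals mark the 12 bases nearest the 3′ end, which adjoin the PAM. None of 141767 annotated transcripts holds either guide, and they were not placed in the genome here. The 300 bases around the RefSeq start sites of *Cbx5*, the targeted gene, and *Gfra1*, the second largest rise below, are given 5′ to 3′. In GRCm38.p6 they lie at chr15:103239803-103240102 and chr19:58455349-58455648, both on the minus strand. CG dinucleotides, the substrate of DNA methylation, are in capitals. The gene positions used below start *Gfra1* further upstream, so its window lies inside the gene as placed there.
HP1α upstream sgRNA: ctcgccagTTCTGCCGAGAT
HP1α downstream sgRNA: ggctgagtGAGAACTAGTAG
Cbx5 promoter: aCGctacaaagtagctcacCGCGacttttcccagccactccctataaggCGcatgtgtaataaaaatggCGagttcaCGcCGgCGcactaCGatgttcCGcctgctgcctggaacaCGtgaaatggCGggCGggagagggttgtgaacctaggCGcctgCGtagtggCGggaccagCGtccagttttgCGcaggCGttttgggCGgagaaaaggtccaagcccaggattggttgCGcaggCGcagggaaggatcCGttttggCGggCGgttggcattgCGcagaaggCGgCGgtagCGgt
Gfra1 promoter: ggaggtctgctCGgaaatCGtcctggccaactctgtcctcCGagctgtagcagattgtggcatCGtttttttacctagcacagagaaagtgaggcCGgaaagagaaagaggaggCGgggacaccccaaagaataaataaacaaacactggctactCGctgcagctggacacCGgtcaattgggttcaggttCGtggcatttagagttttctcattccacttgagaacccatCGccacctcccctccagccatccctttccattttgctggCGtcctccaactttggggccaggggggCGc
The *Cbx5* window has 29 CG dinucleotides and the *Gfra1* window 12, against a median of 7 over 32851 promoters, of which 12.9% and 39.6% have as many or more. The count describes these letters and was not tested against expression.

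*Cbx5* (ENSMUSG00000009575, chromosome 15 of GRCm38, 103191544 to 103239816, minus strand) had 486, 475 and 486 CPM in set A and 174, 178 and 175 CPM in Hp1α KO ESCs. The groups do not overlap, and 36.5% of the set A level was left, a log2 fold change of −1.45 ± 0.03 (SE, adjusted p = 4.96e-19, quasi-likelihood test of edgeR, adjusted by Benjamini-Hochberg over all genes tested, which gave every adjusted p here). In TPM, which divides by length, *Cbx5* was 85, 95.5 and 93.5 in set A and 26.4, 31.5 and 25.9 in Hp1α KO ESCs. Counts cover the whole gene, so transcripts of the parts that were not deleted are included. The paralogs were not lower. *Cbx1* had 427, 440 and 444 CPM in set A and 462, 449 and 451 CPM in Hp1α KO ESCs (log2 fold change 0.06 ± 0.02, adjusted p = 0.0369). *Cbx3* had 184, 172 and 173 CPM against 221, 201 and 206 CPM (0.26 ± 0.04, adjusted p = 1.3e-05). For both, the groups do not overlap, and both lay within the fold threshold used for calls, an absolute log2 fold change over 1 beside an adjusted p under 0.05.

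**Figure D1:**
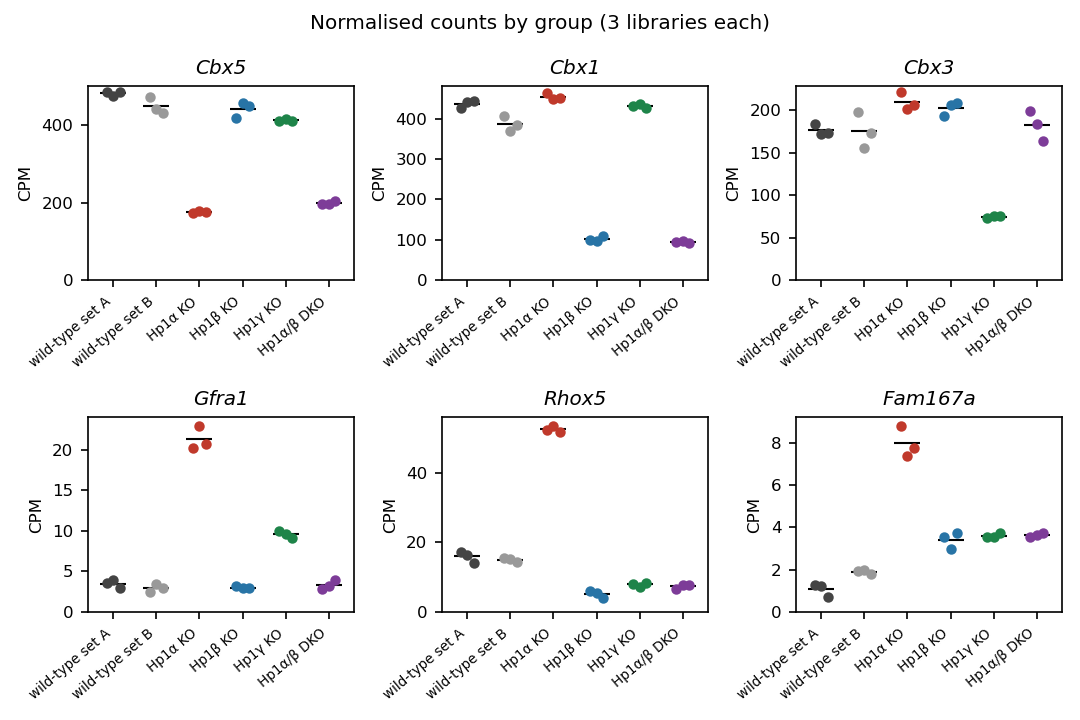
CPM of the HP1 genes and of 3 genes that rose in Hp1α KO ESCs, in each of 3 libraries (points) and their mean (bar) for 6 groups. *Cbx5* was low in Hp1α KO and Hp1α/β DKO ESCs (means 176 and 199 CPM), and *Gfra1*, *Rhox5* and *Fam167a* were highest in Hp1α KO ESCs.

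Genes next to *Cbx5* were examined because a deletion can touch its neighbours. Of 30 tested genes that start within 1 Mb of the *Cbx5* start, 17 passed an adjusted p under 0.05, 8 higher and 9 lower. Of them 4 were called, *Cbx5* included, all lower. Over all genes tested 45.0% passed (22.8% higher, 22.2% lower), and 4.87% were called (3.31% lower). *Hnrnpa1*, which encodes an RNA-binding protein of splicing, starts 0.616 kb away on the other strand and had 1549, 1606 and 1608 CPM in set A and 1626, 1637 and 1630 CPM in Hp1α KO ESCs (log2 fold change 0.05 ± 0.02). The called genes were *Cbx5* and *Gm49272*, *Gm49273* and *Gm49274*, a non-coding RNA and 2 pseudogenes that lie together 410 to 422 kb away. Of these *Gm49273* had 10.5, 13.8 and 15.3 CPM in set A and 6.28, 5.7 and 4.3 CPM in Hp1α KO ESCs (−1.27 ± 0.15, adjusted p = 8.34e-07), but it was not called against set B, at −0.47 with a set B mean of 7.59 CPM. *Gm49272* was not called there either (−0.95, adjusted p = 0.151). The calls of *Gm49272* and *Gm49274* rest on single libraries, with −1.08 and −0.99 (adjusted p = 0.171 and 0.12) without set A replicate 1 and −1.18 and −0.81 (0.109 and 0.159) without Hp1α KO replicate 1. Pseudogene counts can include reads of the parent gene, which was not tested. Short of the fold threshold, *Pde1b*, a cyclic nucleotide phosphodiesterase 263 kb away, had a log2 fold change of −0.82, which was −0.62 against set B. *Gtsf1*, a gene of the piRNA pathway 191 kb away, was higher than in set A (0.79, adjusted p = 1.89e-04) and lower than in set B (−1.53). *Nckap1l*, 214 kb away, had −0.68 and *Ppp1r1a*, an inhibitor of protein phosphatase 1, −0.66, which were 0.06 and −0.26 against set B.

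Across the genome many genes moved a little and few moved far. Of 15841 genes tested, 772 were called (4.87%), 247 higher (1.56%) and 525 lower (3.31%). Without the fold threshold 7126 genes (45.0%) passed, 3605 higher (22.8%) and 3521 lower (22.2%), of which 10.8% also passed the fold threshold. The groups do not overlap for 8377 genes (52.9%) of all tested, for 236 of the 247 called higher and for 502 of the 525 called lower. The median absolute log2 fold change of called genes was 1.41 for rises and 1.33 for falls, and 39 rises and 42 falls went beyond 2.

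Most called genes were weakly expressed. The median of the higher group was 2.2 CPM among rises and 2.59 CPM among falls, and 75 rises and 157 falls reached 5 CPM there. Among protein-coding genes 574 of 14006 tested were called (4.1%), and among all other biotypes 198 of 1835 (10.8%).

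**Figure D2:**
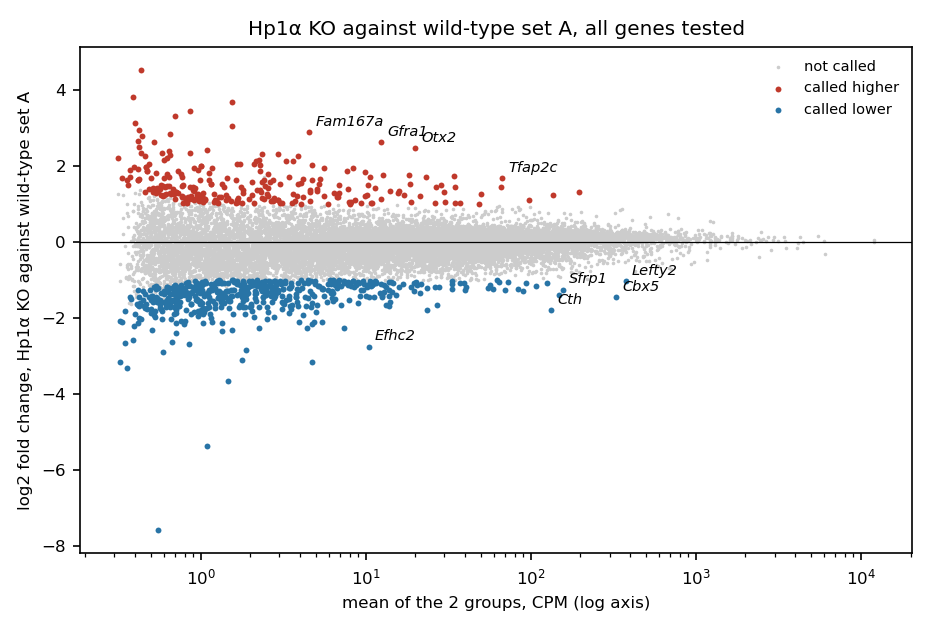
Log2 fold change of Hp1α KO against *wild-type* set A ESCs (vertical axis) by mean CPM of both groups (horizontal axis, log scale) for 15841 genes, with genes called higher in red and lower in blue. Called genes lie mainly at low CPM, and *Cbx5*, *Lefty2*, *Sfrp1* and *Cth* are among the few at high CPM.

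Named rises included regulators of development and a growth factor receptor. The largest among named genes of at least 5 CPM was *Fam167a* (ENSMUSG00000035095, chromosome 14, 63436394 to 63465498), with 1.28, 1.24 and 0.672 CPM in set A and 8.82, 7.4 and 7.76 CPM in Hp1α KO ESCs (log2 fold change 2.90 ± 0.22, adjusted p = 1.03e-09). *Gfra1* (ENSMUSG00000025089, chromosome 19, 58235604 to 58455909), the receptor that binds GDNF and presents it to RET, had 3.58, 3.86 and 2.88 CPM in set A and 20.2, 23 and 20.8 CPM in Hp1α KO ESCs (2.64 ± 0.12, adjusted p = 5.53e-13). *Otx2* (ENSMUSG00000021848, chromosome 14, 48657677 to 48673819), a homeobox factor of the epiblast and forebrain, had 5.42, 5.61 and 7.34 CPM against 32.1, 32.9 and 36.3 CPM (2.47 ± 0.10, adjusted p = 1.08e-13). In each of these genes every Hp1α KO library was above every set A library, 5.56-fold on the fitted scale for *Otx2* and 6.22-fold for *Gfra1*. *Gfra1* TPM was uneven within set A, at 1.08, 5.17 and 0.99, while its CPM was not.

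The next rises were *Stmn4*, a stathmin that binds tubulin (2.15 ± 0.28), *Notumos* (2.14 ± 0.22), *Sox21*, a SOX factor of neural progenitors (2.02 ± 0.18), *Wt1*, a zinc finger factor of kidney and gonad (1.96 ± 0.16), *Msc*, a basic helix-loop-helix repressor (1.96 ± 0.13), *Slc4a5*, a bicarbonate cotransporter (1.85 ± 0.12), and *Arl14epl* (1.78 ± 0.11). *Notumos* runs antisense to *Notum*, an enzyme that inactivates Wnt ligands, which rose as well (1.25 ± 0.08, adjusted p = 2.6e-10). How strand entered the counting is not given in the sources used here, so reads of *Notum* and *Notumos* cannot be told apart. *Sox21* had 1.7, 2.02 and 1.92 CPM in set A and 8.51, 7.09 and 7.25 CPM in Hp1α KO ESCs, and *Msc* had 3.67, 2.9 and 3.74 CPM against 13.4, 14 and 12.5 CPM, with no overlap in either.

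Among the falls, *Efhc2* (ENSMUSG00000025038, chromosome X, 17132049 to 17319368), an EF-hand protein, had 18.2, 16.5 and 19.8 CPM against 2.68, 2.78 and 2.57 CPM (−2.75 ± 0.13, adjusted p = 7.12e-13). *Cth*, the cystathionine gamma-lyase that makes cysteine, was the most abundant of the large falls named here, with 205, 203 and 213 CPM in set A and 58.2, 59 and 60.5 CPM in Hp1α KO ESCs (−1.80 ± 0.04, adjusted p = 5.21e-18). The groups do not overlap for either gene. The others were *Lrrc7*, a postsynaptic scaffold (−2.27), *Pou2f3*, a POU factor of tuft cells (−2.16), *Dmrtc1c1* (−2.11), *Apob*, the core protein of low-density lipoprotein (−2.10), *Htr1f*, a serotonin receptor (−1.91), *Tarm1*, a receptor of myeloid cells (−1.86), and *Pdzd2*, a PDZ domain protein (−1.79).

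Fewer falls were of abundant transcripts, and some of these encode secreted regulators. *Lefty2*, an inhibitor of Nodal, was just past the fold threshold, with 514, 504 and 494 CPM in set A and 250, 251 and 242 CPM in Hp1α KO ESCs (−1.02 ± 0.03, adjusted p = 1.04e-16), and it was at −0.90 and not called against set B. *Sfrp1*, a secreted binder of Wnt ligands, had 231, 224 and 209 CPM against 93.6, 93.5 and 90.6 CPM (−1.25 ± 0.04, adjusted p = 1.55e-15), and was called against set B too (−1.12). Set A and Hp1α KO ESCs were far apart in both. Of the 10 rises and 9 falls above, 10 rises and 6 falls were also called in the same direction with set B as the control. *Dmrtc1c1* had a log2 fold change of −0.85 there, and *Lrrc7* and *Htr1f* had no counts in the 3 set B libraries, so Hp1α KO ESCs were at least 10.7-fold and 12.5-fold higher than a floor of 3 counts over set B.

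**Figure D3:**
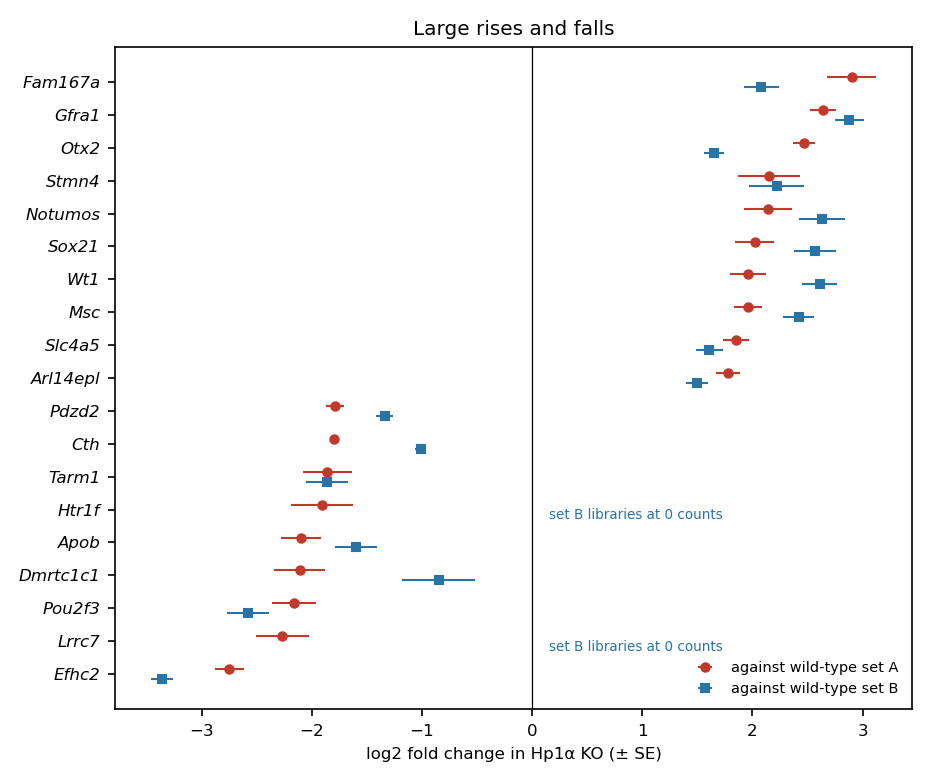
Log2 fold change (± SE) of the 10 rises and 9 falls described above in Hp1α KO ESCs, against *wild-type* set A (red circles) and against set B (blue squares). Points of a gene lie on the same side of 0 except for *Lrrc7* and *Htr1f*, which had no counts in set B and have no point there.

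The choice of *wild-type* set mattered. With set B as the control, 1438 of 15935 genes tested were called (9.02%), 587 higher (3.68%) and 851 lower (5.34%). Both comparisons use the same Hp1α KO libraries, so they are not independent. Of the 247 rises, 126 were called higher and 5 lower against set B. Of the 525 falls, 455 were tested there, with 234 called lower and 66 called higher. In 57 of these 66 the set B mean was under 10% of the set A mean, and in 22 all set B libraries were at 0. *Lsamp*, a neural adhesion protein picked after its values were seen, had 9.27, 7.68 and 9.46 CPM in set A, 2.87, 2.7 and 3.18 CPM in Hp1α KO ESCs and no count in set B. The genes called in the same direction against both sets numbered 360, which is 46.6% of the calls against set A and 25% of those against set B.

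No core pluripotency gene passed the fold threshold, and small shifts went both ways. *Pou5f1*, which encodes OCT4, had 954, 949 and 942 CPM in set A and 865, 851 and 867 CPM in Hp1α KO ESCs (log2 fold change −0.13 ± 0.02, adjusted p = 7.7e-06). *Sox2* had 351, 360 and 352 CPM against 437, 428 and 430 CPM (0.29 ± 0.02). *Nanog* had 199.8, 206 and 208 CPM against 235, 236 and 240.0 CPM (0.22 ± 0.03). The groups do not overlap in any of them, and none was called. Of 12 core pluripotency genes 6 were higher and 5 lower at the adjusted p alone, where 22.8% and 22.2% of all genes were. Their summed level was 4632 to 4661 CPM over set A libraries, 4445 to 4521 CPM in Hp1α KO ESCs and 4388 to 4446 CPM in set B, so that the Hp1α KO libraries lay below set A and near set B.

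Genes of the naive state and of the later formative and primed states both held rises. Of 22 naive genes 3 rose and none fell, where 1.56% and 3.31% of all genes did. At the adjusted p alone 17 were higher and 4 lower, where 22.8% and 22.2% of all genes were. The naive genes had a median log2 fold change of 0.30 beside −0.01 for all genes. Their summed level, which the abundant members set, was 2343 to 2385 CPM over set A libraries and 2299.7 to 2315 CPM in Hp1α KO ESCs, lower without overlap, and 2045 to 2189 CPM in set B. The rises were *Klf4*, a Krüppel-like factor of the naive network, with 17.2, 17.4 and 16.8 CPM in set A and 40.6, 44.2 and 43.1 CPM in Hp1α KO ESCs (1.32 ± 0.06, adjusted p = 1.67e-12), and the weakly expressed *Spic* (1.83) and *Klf17* (1.30). Of 18 formative and primed genes 13 were higher and 4 lower at the adjusted p alone, with a median of 0.44. Past the fold threshold 4 rose and none fell. Beside *Otx2* these were *Fgf5*, a growth factor of the primed epiblast (0.964, 0.322 and 0.624 CPM against 2.68, 1.87 and 3.41 CPM, 2.06 ± 0.37), *Lef1*, a Wnt effector (1.22), and *Pou3f1*, a POU factor of epiblast and neural cells (32.7, 36.5 and 28.8 CPM against 66.7, 64.6 and 63.9 CPM, 1.0 ± 0.06, adjusted p = 9.27e-11). Against set B, 3 of the 3 naive rises and 3 of the 4 formative and primed rises were called as well, and *Lef1* had 0.99. *Klf17* had 1.04 (adjusted p = 0.126) without Hp1α KO replicate 1, 1.29 (0.0665) without set A replicate 1 and 1.2 (0.078) without set A replicate 2. *Pou3f1* had 0.99 without Hp1α KO replicate 1 and 0.92 without set A replicate 3, under the fold threshold.

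The de novo DNA methyltransferases, which are high in formative cells, were higher at the adjusted p alone. *Dnmt3b* had 614, 621 and 599.7 CPM in set A and 957, 915 and 943 CPM in Hp1α KO ESCs (0.63 ± 0.02, adjusted p = 1.07e-14), and *Dnmt3a* had a log2 fold change of 0.43 ± 0.03. Both were picked after their values were seen. Of 13 genes of DNA methylation and its removal none was called. At the adjusted p alone 6 were higher and 4 lower, where 22.8% and 22.2% of all genes were, with a median of 0.04. Against set B 5 were higher and 2 lower, with a median of 0.08.

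Few signalling genes passed the fold threshold, while some lists leaned one way at the adjusted p alone. Over all genes tested 1.56% were called higher and 3.31% lower. In the BMP list 2 of 13 rose, *Id3*, an inhibitor of basic helix-loop-helix factors (9.36, 9.7 and 9.65 CPM against 28.1, 25.3 and 28.8 CPM, 1.53 ± 0.08, adjusted p = 1.27e-11), and *Msx1* (1.31), while the median of the list was −0.30, which turned to 0.10 against set B. At the adjusted p alone 2 BMP genes were higher and 5 lower against set A, and 4 higher and 1 lower against set B. *Msx1*, at under 1 CPM, lost its call without any of the 6 libraries, with 1.06 (set A replicate 1 left out) to 1.5 (set A replicate 2 left out). In the Nodal list *Inhbb*, an activin subunit, rose (1.52) and *Lefty2* fell, of 15 tested. At the adjusted p alone 2 Nodal genes were higher and 9 lower against set A, where 22.8% and 22.2% of all genes were, with a median of −0.20, and 3 higher and 8 lower against set B. The Wnt target list had 2 rises of 11, *Lef1* and *Notum*, with 7 higher and none lower at the adjusted p alone and a median of 0.25, and 5 higher and 1 lower against set B. The FGF-ERK list had 1 rise of 22, *Fgf5*, with 8 higher and 3 lower at the adjusted p alone. In the small group of RET and GDNF family receptors 3 of 6 were called, where 4.87% of all genes were. *Gfra1* rose, and *Ret*, the kinase it signals through, had 1.33, 1.24 and 2.02 CPM in set A and 3.59, 2.57 and 4.54 CPM in Hp1α KO ESCs (1.23 ± 0.27, adjusted p = 0.00102). *Gfra4*, a receptor for persephin, fell (−1.39). Against set B, *Gfra1* was again called (2.88), while *Ret* had 0.41 and *Gfra4* −1.0, neither beyond the threshold.

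*Rhox* genes, homeobox genes of the reproductive tract in a cluster on the X chromosome, stood out among germline genes. *Rhox5* (ENSMUSG00000095180, chromosome X, 37804842 to 37808876) had 17.3, 16.4 and 13.9 CPM in set A and 52.4, 53.4 and 51.8 CPM in Hp1α KO ESCs (1.73 ± 0.07, adjusted p = 7.57e-14). *Rhox9* had 3.3, 2.39 and 3.17 CPM against 6.96, 5.61 and 6.08 CPM (1.08 ± 0.18), and *Rhox6* had a log2 fold change of 0.83 ± 0.14 and was not called. Of 42 *Rhox* genes listed 4 passed the filter and 2 rose. *Rhox9* was just under the fold threshold without Hp1α KO replicate 1 (0.99) or set A replicate 2 (0.95). These genes are close copies, and reads they share were split by the authors' counting.

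In the list of 25 tested germline genes none rose and 2 fell, *Sycp1*, a part of the synaptonemal complex (−1.57), and *Mei1*, a meiosis gene (−1.61, or −1.35 with adjusted p = 0.0602 without set A replicate 1). *Sycp1* had −0.83 against set B and was not called there. Picked after their values were seen, *Stra8*, a gene that retinoic acid turns on before meiosis, rose (1.68), as did *Kit*, the receptor of stem cell factor (1.06). *Kit* had 0.68 against set B and was not called there. *Stra8* had 1.47, 3.49 and 2.64 CPM in set A and 7.37, 7.53 and 9.31 CPM in Hp1α KO ESCs, and *Kit* had 19.6, 18.4 and 21 CPM against 41.7, 40.9 and 39.9 CPM. None of 22 listed 2-cell-like genes passed the filter. Summed over 19 of them, levels were 0.0918 to 0.192 CPM over set A libraries and 0.327 to 0.522 CPM in Hp1α KO ESCs. They were 0.44 to 0.813 CPM in set B, so Hp1α KO ESCs were not above both *wild-type* sets.

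Few lineage genes were called. Over all genes 1.56% were called higher and 3.31% lower, so lists this short could hold no rise at that share. Of 14 primitive endoderm genes none rose and 1 fell (*Cubn*, −1.25, lost at −1.14 without Hp1α KO replicate 1 and at −1.03 without set A replicate 3). At the adjusted p alone 6 were lower, where 22.2% of all genes were. Over the 20 listed genes, tested or not, the summed level was 1268 to 1291 CPM over set A libraries and 1011 to 1014 CPM in Hp1α KO ESCs, while *Gata4*, a defining factor, had a log2 fold change of 0.34 (adjusted p = 0.503) and *Gata6* was too low to be tested. The abundant members are basement membrane genes, among them *Lama1*, with 153, 159 and 161 CPM in set A and 95.5, 94.7 and 92.1 CPM in Hp1α KO ESCs (−0.73 ± 0.04, adjusted p = 2.61e-12). *Lamc1* had −0.32 and *Col4a1* −0.65. Of 10 mesoderm genes none was called.

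Of 12 neural genes 2 rose and 3 fell, where 1.56% and 3.31% of all genes did. *Sox1* (1.64) and *Pax6* (1.07), factors of neural progenitors, were called higher, and *Nrcam*, a neural adhesion protein (−1.10), was among those called lower. *Nrcam* had a log2 fold change of 0.50 against set B. Another fall was *Olig2*, a factor of motor neuron and glial progenitors on chromosome 16, picked after its values were seen, with means of 83.6 CPM in set A and 41.5 CPM in Hp1α KO ESCs (−1.0 ± 0.05, adjusted p = 1.23e-12) and −0.48 against set B. It was just under the fold threshold without Hp1α KO replicate 1 or 2 (−0.99 and −0.97) or set A replicate 1 (−0.98). In the trophoblast list of 15, *Tfap2c*, which encodes AP-2γ and is shared by trophoblast and naive cells, had 33.2, 31.7 and 30.7 CPM in set A and 97.6, 106 and 105 CPM in Hp1α KO ESCs (1.70 ± 0.05, adjusted p = 5.65e-16), and *Cyp11a1*, a steroid enzyme, fell (−1.55). The call of *Cyp11a1* was lost without Hp1α KO replicate 2 or 3 (−1.41 and −1.25) and without set A replicate 1 or 3 (−1.36 and −1.41), and that of *Pax6* without set A replicate 3 (0.87). *Col1a2* rose (1.43, but −0.69 against set B) and *Twist1* fell (−1.22, but −0.63 and not called against set B) among 11 tested fibroblast markers. *Lum* was the marker at 0.

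Genes of the H3K9 methylation system stayed within the fold threshold against set A. None of 9 methyltransferases, 18 partners and 10 demethylases was called, where 4.87% of all genes were. At the adjusted p alone 1 methyltransferase was higher and 3 were lower. Of the partners 8 were higher and 5 lower, and of the demethylases 2 and 6, where 22.8% and 22.2% of all genes were. With set B as the control 1 methyltransferase was called higher, and no partner or demethylase was called. *Setdb1* had 196, 208 and 195 CPM in set A and 190.2, 191 and 194 CPM in Hp1α KO ESCs (−0.05 ± 0.03, adjusted p = 0.218). *Ehmt2*, an H3K9 methyltransferase gene, had 220.4, 228 and 230.3 CPM against 173, 169.6 and 169 CPM (−0.40 ± 0.03, adjusted p = 1.99e-09). *Ehmt1*, which encodes its partner GLP, had −0.20, *Suv39h1* −0.00, *Suv39h2* 0.15, and *Trim28*, the co-repressor that recruits SETDB1, 0.16. None of 13 PRC1.6 and 12 PRC2 genes and none of 19 p53 targets was called. The genes of this system named here were picked after their values were seen.

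Cholesterol genes moved together below the fold threshold. None of 20 genes of cholesterol synthesis was called, but 19 were higher at the adjusted p alone, where 22.8% of all genes were, with a median log2 fold change of 0.44. *Idi1*, an isomerase of the isoprenoid steps, had 130.1, 125 and 129 CPM in set A and 199, 199.6 and 192 CPM in Hp1α KO ESCs (0.63 ± 0.03, adjusted p = 5.32e-12), with no overlap of the groups. *Sqle*, the squalene epoxidase, had 119.9, 116 and 114 CPM against 173, 177 and 177 CPM (0.60 ± 0.03). Against set B the median was 0.05, with 6 higher and 3 lower at the adjusted p alone (25.0% and 24.1% of all genes). *Idi1* had 0.42 there and *Sqle* 0.28.

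The balance of hypoxia and glycolysis genes differed with the control. Of 29 tested, 3 fell, *Car9*, a carbonic anhydrase (−2.13), *Adm*, the peptide adrenomedullin (−1.63), and *Ndrg1*, a stress-responsive gene with 37, 37.1 and 35.8 CPM in set A and 15.7, 15.3 and 17.2 CPM in Hp1α KO ESCs (−1.18 ± 0.07, adjusted p = 2.68e-11). At the adjusted p alone 13 were higher and 11 lower (22.8% and 22.2% of all genes), with a median of 0.04. Against set B 2 were higher and 21 lower (25.0% and 24.1% of all genes), with a median of −0.52. *Vegfa*, the endothelial growth factor, had −0.83 and *Egln3*, an oxygen-sensing hydroxylase, −0.76. The glucose transporters *Slc2a3* and *Slc2a1* had 0.75 and 0.67, but 0.14 and 0.03 against set B, where 7 of the 29 genes were called lower.

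By GO term 16 genes of cell adhesion rose and 18 fell of 377 tested, and 20 and 20 of 370 against set B, while 1.56% of all genes rose and 3.31% fell against set A. Of 24 collagen genes 2 rose and 1 fell. Of 28 tested clustered protocadherins, neuronal cell surface proteins encoded in tandem on chromosome 18, 5 fell and none rose, with a median of −0.41. *Pcdhgb5* was the most abundant that is named here, with 3.17, 5.19 and 3.07 CPM in set A and 1, 1.48 and 2.43 CPM in Hp1α KO ESCs (−1.21 ± 0.30, adjusted p = 0.00226), and *Pcdhb2*, *Pcdhgb4* and *Pcdhgb1* had −1.37, −1.35 and −1.27. Without Hp1α KO replicate 1, *Pcdhb2* had −1.08 (adjusted p = 0.1) and *Pcdhgb5* −0.96, without set A replicate 2 *Pcdhgb5* had −0.92 and *Pcdhgb4* −1.14 (adjusted p = 0.0516), and without set A replicate 1 or 3 *Pcdhb2* had −1.33 and was not called. The isoforms share exons, so reads can be split between them. None of 27 was called against set B. *Lama4*, a laminin chain, fell (−1.68), and *Gap43*, a growth cone protein on chromosome 16, had 40, 44.6 and 39.4 CPM in set A and 14.3, 13 and 12.2 CPM in Hp1α KO ESCs (−1.64 ± 0.08, adjusted p = 7.98e-13).

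Of 388 tested genes named Zfp, many of which encode repressors that recruit TRIM28 and through it HP1, 1 rose and 2 fell, *Zfp469* (1.16), *Zfp934* (−1.03) and *Zfp800* (−1.0). Against set B these 3 had 0.87, −0.73 and −0.69, and none of them was called. All 3 lost the call without some library, *Zfp469* without set A replicate 1 (0.84), *Zfp934* without Hp1α KO replicate 2 or 3 (−0.99 and −0.95) or set A replicate 2 (−0.91), and *Zfp800* without Hp1α KO replicate 2 (−0.94) or set A replicate 2 or 3 (−0.99 and −0.97). At the adjusted p alone 52 were higher and 102 lower, where 22.8% and 22.2% of all genes were. Against set B the balance turned, with 98 higher and 68 lower (25.0% and 24.1% of all genes). The median was −0.08, and 0.05 against set B. A window of 10 Mb on chromosome 13 from 60 to 70 Mb, with 20 Zfp genes among 70 tested, had a median of −0.32 against set A and 0.05 against set B. Of 35 imprinted genes 2 rose, *H19*, a non-coding RNA (2.43), and *Magel2* (1.35, but 0.98 and not called against set B). Of 59 potassium channel genes 1 rose and 1 fell.

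Chromosome 16 stood apart from the rest. Its 457 tested genes had a median log2 fold change of −0.51, which is 70.4% of the set A level, with quartiles of −0.73 and −0.35, while the medians of the other 19 chromosomes (X included) lay between −0.05 and 0.05. On chromosome 16, 95.4% of genes had a log2 fold change below 0, against 49.6% of all others. Of its genes 54 were called lower (11.8%) and 2 higher, and 366 (80.1%) were lower at the adjusted p alone. The shift ran along the whole chromosome. In 7 windows of 10 Mb with at least 20 genes the medians were −0.56 to −0.46, and in 193 windows elsewhere they were −0.32 to 0.20, with 190 within 0.2 of 0.

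The chromosome 16 shift was present in every Hp1α KO library and in other mutants. Over 360 genes, the median difference from the set A mean was −0.50, −0.50 and −0.49 in the 3 Hp1α KO libraries, −0.51, −0.49 and −0.49 in Hp1γ KO, −0.41, −0.41 and −0.42 in Hp1α/β DKO, −0.31, −0.30 and −0.29 in Hp1β KO, and −0.06, −0.09 and −0.10 in *wild-type* set B. Chromosome copy number was not measured here, and its part in the shift was not tested. Set against Hp1γ KO ESCs the chromosome 16 median of Hp1α KO ESCs was 0.01. Measured from the median of the chromosome itself, 16 of the 54 falls still passed the fold threshold. *Gap43*, *Htr1f*, *Lsamp*, *Olig2*, *Bcl6* (−1.71) and *Snai2* (−1.69), named here, lie on chromosome 16. *Snai2* was not called without Hp1α KO replicate 1 or 2 (−1.46 and −1.56) or set A replicate 1 (−1.50).

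**Figure D4:**
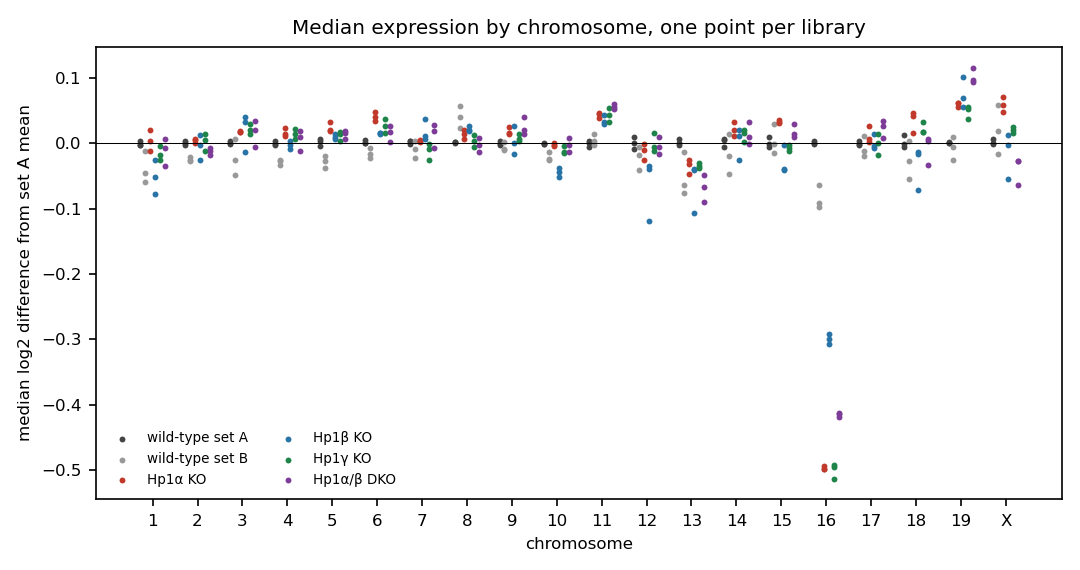
Median log2 difference from the mean of *wild-type* set A for each chromosome (horizontal axis), with 1 point per library and 6 groups in colour. On chromosome 16 the 3 Hp1α KO libraries lie at −0.50 to −0.49, on a par with Hp1γ KO and below set B at −0.10 to −0.06, and other chromosomes lie near 0.

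Measures of RNA make-up also moved between the groups. Summed over 11 non-polyadenylated RNAs, levels were 2.66 to 3.13 CPM in set A, 5.74 to 7.11 CPM in Hp1α KO ESCs and 17 to 19 CPM in set B, and *Rpph1*, the RNA of RNase P, rose (2.04). The 15 tested mitochondrial genes had a median log2 fold change of −0.37, and −0.24 against set B. Their part in the calls was not tested.

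To find what set Hp1α KO ESCs apart from the other Hp1 mutants, they were compared with Hp1β KO and Hp1γ KO ESCs directly. Against Hp1β KO, 958 of 15728 genes were called (6.09%), 549 higher (3.49%) and 409 lower (2.60%). Against Hp1γ KO the number was 259 of 15734 (1.65%), 104 higher (0.661%) and 155 lower (0.985%). Of the 247 rises, 62 were called higher than in Hp1β KO and 23 higher than in Hp1γ KO, and of the falls 74 and 43 were called lower.

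Only 14 genes were called in the same direction against set A, set B, Hp1β KO and Hp1γ KO, 8 higher and 6 lower. These comparisons use the same Hp1α KO libraries, so they are not independent. The rises were *Gfra1*, *Rhox5*, *Rhox9*, *Fam167a*, *Fgf5*, *Mobp*, a myelin protein, *Gm29719* and *Gm36634*. The falls were *Cbx5*, *Tmem266*, *Gm37324*, *Gm45105*, *Gm48111* and *Gm49274*. Several were weakly expressed, with Hp1α KO means of 2.66 CPM for *Fgf5*, 1.19 for *Gm29719* and 1.16 for *Gm36634*. *Tmem266*, *Gm37324* and *Gm45105* had set A means of 1.3, 1.06 and 1.26 CPM and Hp1α KO means of 0.61, 0.38 and 0.452 CPM. *Rhox5* had means of 52.6 CPM in Hp1α KO ESCs, 15.9 and 14.9 CPM in the *wild-type* sets, 5.16 CPM in Hp1β KO and 7.86 CPM in Hp1γ KO, so that it was lowest where another HP1 gene was lost. *Gfra1* had 21.3 CPM in Hp1α KO, 9.56 CPM in Hp1γ KO and between 2.9 and 3.44 CPM in the *wild-type* sets and Hp1β KO. *Fam167a* had 8 CPM in Hp1α KO, and its means in Hp1β KO and Hp1γ KO (3.42 and 3.61 CPM) were also above those of set A and set B (1.07 and 1.9 CPM). *Otx2* and *Klf4* had means of 23.3 and 51.2 CPM in Hp1γ KO ESCs.

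The loss of HP1α was also read where HP1β was already absent, by setting Hp1α/β DKO against Hp1β KO ESCs, which share no library with the comparison above. There 1058 of 15694 genes were called (6.74%), 643 higher (4.10%) and 415 lower (2.64%). Of the rises without HP1α 233 were tested, with 44 called higher and 18 lower and a median of 0.22, and of the falls 441 were tested, with 62 called lower and 32 higher and a median of −0.34. The 106 genes called in the same direction are 15.7% of the calls of the first comparison tested in both, and 10.9% of those of the second. The difference between the effects in the 2 backgrounds passed an adjusted p under 0.05 for 7432 of 16512 genes (45.0%), of which 1573 differed by over 1 on the log2 scale, and for 382 of 770 called genes.

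Among genes that rose in both, *Klf4* had means of 19.3 CPM in Hp1β KO and 74.5 CPM in Hp1α/β DKO ESCs (1.96, adjusted p = 7.9e-09). *Tfap2c* had 70.6 and 151 CPM there (1.11), and *Padi4*, which turns arginine of histones into citrulline, 3.01 and 9.29 CPM (1.63). *Zfy1*, a zinc finger gene of the Y chromosome, had 3.28, *Lrrc31* 1.94 and *Rab25*, a small GTPase of epithelial cells, 1.79. *Lrrc31* was 1.30 against set A but −0.70 against set B, where its mean was 15 CPM. *Zfy1* was at 0.66 and *Rab25* at 0.79 against set B, and neither was called there. Among genes that fell in both were *Ngfr*, the p75 neurotrophin receptor, with 76.6, 78.1 and 74.6 CPM in set A, 33.9, 34.8 and 30.4 CPM in Hp1α KO ESCs and means of 159 CPM in Hp1β KO and 36.2 CPM in Hp1α/β DKO (−1.2 and −2.13). *Cdh9*, a cadherin (−1.01 and −2.52), *Apob* (−2.10 and −2.16), *Plcb1*, a phospholipase C (−1.45 and −1.69), and *Nova2*, a splicing factor of neurons (−1.17 and −1.62), completed the 5 largest by the change without HP1β among those of at least 5 CPM in set A. Below that level *Pla2g7* (−2.03 and −3.40) and *Cemip* (−2.31 and −2.57), picked after their values were seen, changed more without HP1β than any of these 5. Against set A, *Cdh9* was at −0.96 without Hp1α KO replicate 1 and at −0.97 without set A replicate 1. Against set B, *Cdh9* (−0.70) and *Nova2* (−0.87) were not called.

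Other changes were not seen without HP1β. *Fam167a* had a log2 fold change of 0.11 (adjusted p = 0.671) and *Gfra1* of 0.15 (adjusted p = 0.588) between Hp1α/β DKO and Hp1β KO, and *Rhox5* had 0.53. The *Fam167a* mean was already 3.42 CPM in Hp1β KO, against 1.07 CPM in set A, and was 3.65 CPM in Hp1α/β DKO. The hypoxia genes that fell in Hp1α KO ESCs did not fall there. *Adm* had 2.14, and of the 29 genes 12 were called higher and none lower, with a median of 0.75. *Vegfa* had means of 13.4 CPM in Hp1β KO and 56.2 CPM in Hp1α/β DKO, a log2 fold change of 2.08 where it was −0.83 with HP1β present (difference 2.90 on the log2 scale).

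**Figure D5:**
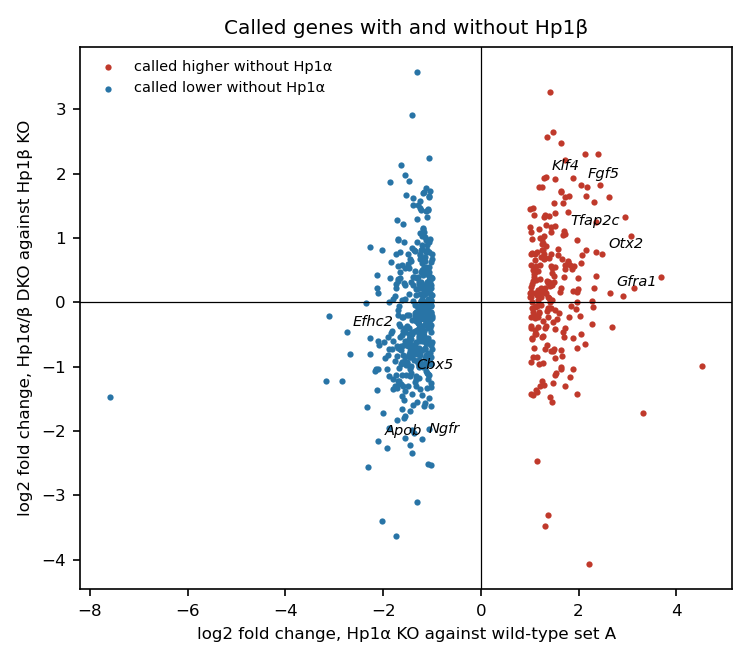
Log2 fold change of genes called in Hp1α KO against set A ESCs (horizontal axis) and of the same genes in Hp1α/β DKO against Hp1β KO ESCs (vertical axis), with rises in red and falls in blue. Of the genes tested in both, 106 were called in the same direction, and points lie on either side of 0 on the vertical axis.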

How the data were processed

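Reads had been processed by the authors. The processing notes of the labels name TopHat2 2.1.1, RSEM, edgeR and GRCm38.p5, and the version of RSEM is not given in the sources used here. The authors deposited expected counts (estimated counts per gene, not normalized) and TPM (length-scaled values, whose depth is unknown) for each library, and their own fold changes, p values and adjusted p values from DESeq2, which were not used. Of the count values of the 6 libraries 11.6% were not whole, and counts were rounded. The labels mapped all columns used, and 63 further columns of per-sample values were left out. TPM values are printed only for 2 genes. Libraries were prepared from total RNA by a stranded kit per the study's methods, while the labels give a TruSeq RNA kit.

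Genes with enough counts (filterByExpr at a minimum count of 10) were fitted on the 6 libraries alone in edgeR 4.0.16 (R 4.3.3, limma 3.58.1), with TMM scaling and its quasi-likelihood test (glmQLFit, glmQLFTest). A call needed an adjusted p (Benjamini-Hochberg, over all genes tested) under 0.05 and a log2 fold change above 1 or below −1. The same fit was made for the other pairs of groups, and the difference between 2 backgrounds was tested as an interaction over 12 libraries. CPM were scaled by TMM over 18 libraries, with 19714459 to 24699608 counts each. Total counts of the 6 libraries were 20627149 to 23165121, and intervals of values cover the spread between libraries only. An exact permutation test of 3 libraries against 3 cannot go below p = 0.1 and was not used. Positions come from GENCODE M21 (GRCm38), which matched 55227 of 55487 genes. Promoters come from RefSeq in GRCm38.p6 and guides from the study's supplementary tables.

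Genes are named by a rule. They are *Cbx5*, *Cbx1*, *Cbx3*, *Pou5f1*, *Sox2* and *Nanog*, the 10 largest rises and falls among called genes with a symbol, separate groups and at least 5 CPM in the higher group, up to 4 called members of each list by size of change, genes called against 4 controls, genes within 1 Mb of *Cbx5*, and, with the same limits on symbol, overlap and CPM, the 5 largest rises and falls shared with the Hp1α/β DKO against Hp1β KO. Other genes, namely list members that were not called and *Kit*, *Stra8*, *Lsamp*, *Olig2*, *Pla2g7* and *Cemip*, were picked after their values were seen. Lists were written from textbook knowledge, from families of symbols and from GO terms in the deposited tables. Some genes that the rule takes are not reported here. The members and lists were chosen with earlier results of these data known. Lists were described by counts and medians, with no test of their own.

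Alternatives were RLE size factors, DESeq2 1.42.0, a minimum of 10 counts in each library, a minimum of 1 count in total, the adjusted p alone, a joint fit of 15 libraries, the replicate number as a block, set B as the control, and fits that left out 1 library. Leaving out chromosome 16, or measuring it from its own median, was chosen after seeing the data. The fits were tested on simulated counts.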

Additional observations from a re-analysis of the deposited data

Results flagged for a closer look

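The effect of losing HP1α was measured in 2 backgrounds, with HP1β present (Hp1α KO against set A) and without it (Hp1α/β DKO against Hp1β KO), and results are listed here where a test of the difference itself passed an adjusted p under 0.05 and the difference was over 1 on the log2 scale (edgeR, interaction over 12 libraries, 45.0% of all genes at the adjusted p alone). A negative value means a lower log2 fold change without HP1β. Most of these genes were named because they were called against set A, and the same libraries are part of the difference. That choice leans rises towards negative values and falls towards positive values.

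Among rises without HP1α the effect was smaller or turned without HP1β for *Fam167a* (−2.81), *Gfra1* (−2.49), *Otx2* (−1.74), *Stmn4* (−1.35), *Notumos* (−2.79) and *Notum* (−1.80), *Sox21* (−2.24), *Wt1* (−1.97), *Msc* (−2.07), *Slc4a5* (−1.92), *Rhox5* (−1.21), *Ret* (−1.15), *Spic* (−3.0) and *Magel2* (−2.02). The same was seen for the neural progenitor genes *Sox1* (−2.39) and *Pax6* (−2.52), the BMP targets *Id3* (−2.66) and *Msx1* (−1.72), and *Rpph1* (−2.55). *Sox21*, *Wt1* and *Msc* were already high in Hp1β KO ESCs, at means of 10.5, 7.15 and 9 CPM, and so were *Id3* (49.8 CPM) and *Pax6* (15.9 CPM). *Fam167a* was at 3.42 CPM in Hp1β KO ESCs, against 1.07 CPM in set A. Of the rises here *Zfy1* alone rose by more without HP1β (1.86).

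Among falls the effect was smaller or turned without HP1β for *Efhc2* (2.28), *Lrrc7* (1.71), *Pou2f3* (1.08), *Dmrtc1c1* (1.5), *Tarm1* (3.73), *Gfra4* (1.66), *Lefty2* (1.04), *Lama4* (1.62), *Twist1* (1.13), *Zfp800* (1.38), *Pcdhgb4* (1.84), *Slc30a10* (2.05) and *Bcl6* (2.26). In *Efhc2* and *Tarm1* the Hp1β KO ESCs were already low, at means of 1.61 and 0.214 CPM. *Cdh9* (−1.52) and *Pla2g7* (−1.38) fell further without HP1β. The hypoxia genes *Car9* (2.55), *Adm* (3.76), *Ndrg1* (1.6), *Vegfa* (2.90) and *Egln3* (3.56) differed in the same direction, and *Egln3* had means of 8.06 CPM in Hp1β KO and 55.9 CPM in Hp1α/β DKO ESCs. All 40 differences rest on the same 12 libraries, and the mutants were grown from picked clones, so clone and genotype cannot be told apart. *Vegfa* and *Egln3* did not pass the fold threshold against set A.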

How the results depend on the processing

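Against set A the count of called genes was 767 with RLE size factors, 763 in the joint fit, 916 with no filter and 683 with DESeq2 (208 higher, 475 lower). With at least 10 counts in every library it was 469 (133 higher, 336 lower), where fewer genes were tested, and against the Hp1γ KO 166. By the adjusted p alone it was 7126 (3605 higher, 3521 lower), with 6969 for Hp1α/β DKO against Hp1β KO, 6233 for Hp1α KO against Hp1β KO and 2938 against Hp1γ KO. With set B as the control it was 1438 (587 higher, 851 lower), the median of chromosome 16 was −0.43 over the genes tested there, and the cause of the difference between the sets was not tested. *Lrrc7*, *Htr1f* and *Lsamp* had no count in set B, so their fitted values there (8.06, 8.27 and 9.01) depend on the prior count and measure nothing, and against a floor of 3 counts over set B the bounds were at least 10.7-fold, 12.5-fold and 20.8-fold. That control also turned *Gtsf1* (−1.53), *Vmn2r27* (6.64), *Lrrc31* (−0.70), *Nrcam* (0.50) and *Col1a2* (−0.69), and of 115 named genes 81 kept direction and side of the threshold. Leaving out 1 library gave 715 to 775 called genes (223 to 256 higher, 479 to 548 lower), 963 to 1153 for Hp1α/β DKO against Hp1β KO, 868 to 1050 for Hp1α KO against Hp1β KO, 230 to 261 against Hp1γ KO and 6844 to 7495 interactions, and 21 of 86 named called genes lost the call without some library. Replicate numbers did not pair the libraries, with correlations of −0.026, 0.039 and 0.012 between same-numbered libraries. With the replicate block the counts were 768 (242 higher, 526 lower), 981, 926, 256 and 7267, and 1 named gene, *Gm49274*, lost its call (−1.09, adjusted p = 0.0501, edgeR). Chosen after seeing the data, leaving out chromosome 16 gave 716 (245 higher, 471 lower), and measuring it from its own median 736 (249 higher, 487 lower). Depth limits genes near the filter, where a few counts set the fold.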

Other observations

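Broader gene groups held rises and falls side by side. By the GO terms of the deposited tables, 7 genes of axon guidance rose and 8 fell of 143 tested, 6 genes of ion transport rose and 14 fell of 370, 7 genes of lipid metabolism rose and 19 fell of 384, 1 gene of actin cytoskeleton organization rose and 7 fell of 171, and 13 genes of spermatogenesis rose and 16 fell of 379. Over all genes tested 1.56% were called higher and 3.31% lower. Among those of axon guidance, *Prtg*, a cell surface protein of the early neural epithelium, had 15.1, 16 and 13.4 CPM in set A and 40.8, 45.6 and 40.2 CPM in Hp1α KO ESCs (log2 fold change 1.51 ± 0.08, adjusted p = 2.44e-12, edgeR), and it rose without HP1β as well (1.39).

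Of 124 ribosomal protein genes and pseudogenes 2 rose, *Rpl39l* (1.25) and *Rpl3l* (1.18). Both were at means of 2 CPM or less in either group, and each was not called once some single library was left out. Against set B *Rpl3l* had 0.89 and was not called. At the adjusted p alone 67 were higher and 6 lower, where 22.8% and 22.2% of all genes were. Against set B 30 were higher and 38 lower (25.0% and 24.1% of all genes). The median was 0.08, and 0.01 against set B. Of 23 vomeronasal receptor genes, which detect pheromones, 3 fell. *Vmn2r27* had 18.8, 20.9 and 18.9 CPM in set A and 8.37, 8.27 and 7.72 CPM in Hp1α KO ESCs (−1.26 ± 0.10), and a mean of 0.0747 CPM in set B, where it was called higher (6.64). *Slc30a10*, a manganese exporter, had 2.71, 2.94 and 2.64 CPM in set A and 0.819, 0.87 and 0.842 CPM in Hp1α KO ESCs (−1.70 ± 0.28), and it was called lower against set B too (−1.78).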
